A study of Mus musculus with 96 samples.

Results

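Atcay, Actn3, Vwce, Cacna1e and Ms4a10 were the 5 genes followed here, out of 37620 genes in each count table. They were chosen by their fold change in the Wdr5 knockdown of mouse embryonic stem cells (ESCs), where Actn3 and Atcay stood among the genes that fell the most and Ms4a10, Cacna1e and Vwce among those that rose the most. Their values in that comparison are therefore a description of the choice and carry no test. RNA-seq was available for 7 pairs of groups, each with 2 libraries per group and each in a count table of its own, and peak lists were available for WDR5, H3K4me3, H3K27ac and RING1B.

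The shRNA groups were R1 ESCs with an shRNA against Wdr5 (shWdr5), against Rybp (shRybp) or with the empty vector (shEV). The knockout groups were Rybp-floxed R7.15 ESCs, either untreated (Rybp+/+) or given 5 µM 4-hydroxytamoxifen (4-OHT) for 4 days (Rybp-/-). A TF-AA mutation was compared with wild-type R1 ESCs, and the labels do not say which residues or which gene it concerns. In the phase disruption, both groups were RYBPfl/fl Rosa26::CreERT2 R7.15 ESCs that had received 4-OHT, and they carried either wild-type RYBP (WT.RYBP) or RYBP lacking 21 residues. RYBP overexpression compared J1 ESCs of a Tet on.RYBP line given DOX with the same line given vehicle. The rTRS line holds integrated Rybp and Stat3 under DOX control and was compared with DOX and without (NTC). Each of these is a single line, and the labels do not say whether the 2 libraries of a group came from separate cultures, so p-values measure the spread between libraries only.

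WDR5 is a scaffold of the MLL and SET1 complexes of the Trithorax group, which methylate lysine 4 of histone H3 (H3K4me3 marks start sites of active and poised genes). RYBP is a subunit of non-canonical Polycomb repressive complex 1, whose catalytic subunit RING1B ubiquitylates histone H2A, and H3K27ac marks active enhancers and promoters. Genes that carry H3K4me3 together with Polycomb proteins in ESCs are commonly low in these cells and switched on in specific lineages.

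The 5 genes are of unrelated function. Actn3 encodes the actin cross-linking alpha-actinin of fast muscle fibres, and Atcay encodes caytaxin, a brain protein with a BCH domain. Cacna1e encodes the pore-forming subunit of the R-type voltage-gated calcium channel, Vwce encodes a secreted protein with von Willebrand factor C and EGF domains, and Ms4a10 encodes a membrane protein of the MS4A family. In the annotation of NCBIM37 (mm9), Actn3 (ENSMUSG00000006457) lies on the minus strand at chr19:4861223-4877909 with 21 exons. Atcay (ENSMUSG00000034958) lies on the minus strand at chr10:80667253-80693578 with 13 exons. Cacna1e (ENSMUSG00000004110) lies on the minus strand at chr1:156239649-156573049 with 47 exons and is the longest of the 5. Vwce (ENSMUSG00000043789) lies on the plus strand at chr19:10708723-10739700 with 20 exons. Ms4a10 (ENSMUSG00000024731) lies on the minus strand at chr19:11036787-11049160 with 9 exons, 297.1 kb downstream of the end of Vwce. Exon numbers are those of the longest transcript. No protein-coding gene overlaps any of the 5. The noncoding gene 2310050B05Rik overlaps the end of Atcay on the opposite strand and had 11 counts in all in the Wdr5 knockdown table.

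The count tables held between 14512857 and 81049618 counts on genes per library, and those of the Wdr5 knockdown table between 19731613 and 21500931. Wdr5 was at 350.0 and 343 CPM (read counts scaled to a common library size) in shEV and at 60.0 and 58.1 CPM in shWdr5 ESCs, a log2 fold change of -2.55 ± 0.05 (SE), and Rybp rose there from 79.8 and 81.2 to 121 and 117 CPM. Rybp fell in the Rybp knockdown (85.6 and 86.4 against 35.8 and 36.5 CPM) and in the Rybp knockout (110.0 and 110.0 against 24.8 and 25.0 CPM), and it rose in RYBP overexpression (135.0 and 145 against 521 and 535 CPM). In the rTRS line Rybp did not rise with DOX (113 and 110.0 against 102 and 99.7 CPM), and Stat3 was 159 and 172 against 191 and 188 CPM, so these libraries are called the libraries labelled DOX. In the phase disruption Rybp was high in both groups (748 and 753 against 661 and 626 CPM). Wdr5 also fell in the Rybp knockout (-0.14), the phase disruption (-0.24) and the rTRS line (-0.38, all edgeR), and its part in the values below was not tested. All 5 pluripotency genes examined (Pou5f1, Sox2, Nanog, Zfp42 and Esrrb) were measured in all libraries, with a summed level from 1850 to 5470 CPM.

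The sequence just before the start site of each gene is shown because the peaks described further on lie over or beside it. Each is the 250 bases before the annotated start in NCBIM37, on the strand of the gene, and capitals mark a GC box (GGGCGG) or a CCAAT box (CCAAT) found on either strand. The windows are chr19:4877910-4878159 (Actn3), chr10:80693579-80693828 (Atcay), chr1:156573050-156573299 (Cacna1e), chr19:10708473-10708722 (Vwce) and chr19:11049161-11049410 (Ms4a10).
Actn3: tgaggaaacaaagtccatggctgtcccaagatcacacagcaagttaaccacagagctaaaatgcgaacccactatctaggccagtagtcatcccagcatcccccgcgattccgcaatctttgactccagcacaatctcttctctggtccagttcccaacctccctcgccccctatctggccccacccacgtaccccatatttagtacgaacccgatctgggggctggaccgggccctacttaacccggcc
Atcay: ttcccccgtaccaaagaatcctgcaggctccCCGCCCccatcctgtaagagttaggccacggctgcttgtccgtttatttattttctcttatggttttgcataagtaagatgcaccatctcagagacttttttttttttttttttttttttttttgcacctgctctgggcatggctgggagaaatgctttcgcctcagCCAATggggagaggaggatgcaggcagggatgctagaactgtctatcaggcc
Cacna1e: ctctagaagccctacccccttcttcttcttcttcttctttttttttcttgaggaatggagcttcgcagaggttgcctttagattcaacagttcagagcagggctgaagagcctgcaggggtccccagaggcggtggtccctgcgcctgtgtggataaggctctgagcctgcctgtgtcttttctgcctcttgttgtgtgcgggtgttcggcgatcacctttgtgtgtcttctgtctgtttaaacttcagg
Vwce: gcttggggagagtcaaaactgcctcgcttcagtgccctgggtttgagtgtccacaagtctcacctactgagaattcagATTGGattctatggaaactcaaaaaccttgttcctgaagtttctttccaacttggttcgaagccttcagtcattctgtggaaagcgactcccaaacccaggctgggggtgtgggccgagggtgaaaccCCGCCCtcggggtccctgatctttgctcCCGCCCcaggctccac
Ms4a10: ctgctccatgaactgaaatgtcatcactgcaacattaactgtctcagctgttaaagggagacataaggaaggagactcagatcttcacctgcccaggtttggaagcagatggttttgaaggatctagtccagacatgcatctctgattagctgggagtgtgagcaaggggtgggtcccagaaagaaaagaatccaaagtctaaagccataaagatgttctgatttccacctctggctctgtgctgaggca

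The 5 windows differed most in their CpG content. The Ms4a10 window held 0 CpG dinucleotides and 46.4% G and C. The Actn3 window held 10 CpG, which is 0.584 of the number its base composition gives, against a median of 0.496 over 22362 protein-coding genes. Atcay (5 CpG, 0.359), Cacna1e (6 CpG, 0.355) and Vwce (7 CpG, 0.38) were below that median. A GC box was found in Vwce (2 matches) and Atcay (1 match) and stands in 39.6% of the same windows of protein-coding genes. A CCAAT box was found in Vwce and Atcay (1 match each) and stands in 35.0% of windows. Neither an E-box (CACGTG, in 6.52% of windows) nor a TATA box (TATAAA, in 12.3%) was found in any of the 5. These motifs do not overlap each other here, and a match or its absence is a statement about letters only.

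Actn3 and Atcay were the members lower in shWdr5 ESCs. Actn3 was at 42.7 and 43.7 CPM in the shEV libraries and at 4.9 and 4.08 CPM in the shWdr5 libraries. The groups were far apart, and the log2 fold change was -3.26 ± 0.11, or 9.6-fold lower. Atcay was at 11.3 and 9.25 CPM in shEV and at 1.17 and 1.49 CPM in shWdr5, a log2 fold change of -2.95 ± 0.20. Again no shWdr5 library reached the level of an shEV library.

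Ms4a10, Cacna1e and Vwce were low in shEV ESCs and higher in shWdr5 ESCs. Ms4a10 was at 0.654 and 0.506 CPM in shEV (14 and 10 counts) and at 31.5 and 34.8 CPM in shWdr5 (675 and 726 counts). Its log2 fold change, 5.82 ± 0.17, was the largest of the 5. Cacna1e was at 0.514 and 0.405 CPM (11 and 8 counts) against 14.0 and 12.8 CPM (299 and 266 counts), a log2 fold change of 4.84 ± 0.22. Vwce was at 0.794 and 0.607 CPM (17 and 12 counts) against 20.1 and 18.8 CPM (430 and 391 counts), a log2 fold change of 4.77 ± 0.18. In all 3 genes both shWdr5 libraries were above both shEV libraries, and the shEV levels stood above the 0.14 to 0.152 CPM that 3 counts are worth in these libraries, a floor for counting error only.

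Per kilobase of exon, the order of the genes was different from that of their CPM. In shEV ESCs Actn3 stood highest (14.7 and 15.1 CPM per kb), followed by Atcay (2.83 and 2.32), Ms4a10 (0.65 and 0.502), Vwce (0.224 and 0.171) and Cacna1e (0.0405 and 0.0319). In shWdr5 ESCs Ms4a10 stood highest (31.3 and 34.6 CPM per kb), above Vwce (5.67 and 5.3), Actn3 (1.69 and 1.41), Cacna1e (1.1 and 1.0) and Atcay (0.292 and 0.372). Neighbours in each of these orders did not overlap between libraries. Fewer cells with a transcript and less transcript per cell cannot be told apart in such bulk libraries.

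**Figure D1:**
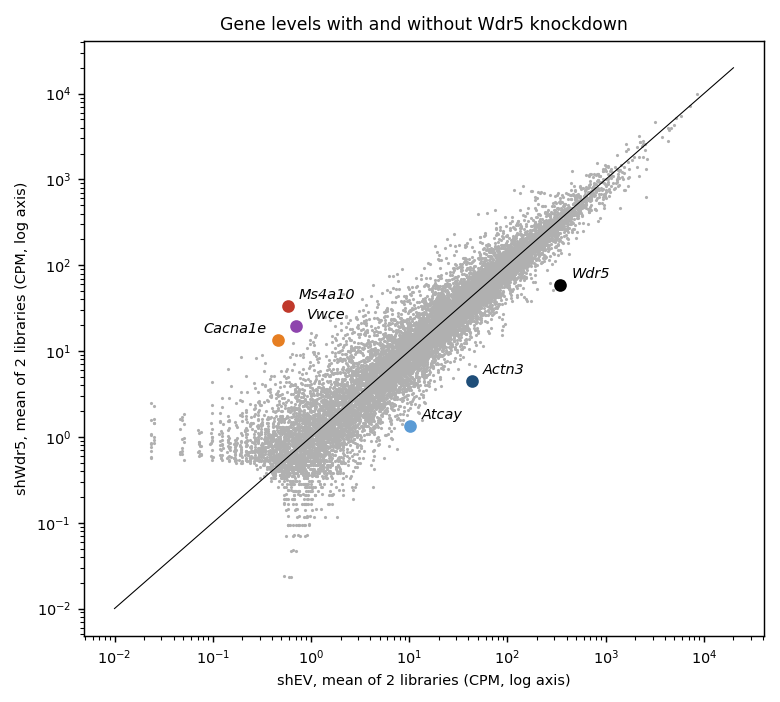
Mean level of each tested gene in 2 shEV libraries (horizontal) and 2 shWdr5 libraries (vertical), in CPM on log axes, with equal levels on the line and genes at 0 in either group left out. Ms4a10, Vwce and Cacna1e lie above the cloud at 33.2, 19.4 and 13.4 CPM in shWdr5, and Actn3 and Atcay lie below it at 4.49 and 1.33 CPM.

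Among all 15143 genes tested, 31.5% were called higher and 31.5% lower in shWdr5 ESCs at an adjusted p under 0.05, so a call as such does not set the 5 genes apart. By log2 fold change, Actn3 ranked 23rd and Atcay 44th from the lowest, and Ms4a10 ranked 15th, Cacna1e 32nd and Vwce 37th from the highest. The genes ahead of them were mostly of low level. Among the 10498 genes with a mean of 5 CPM or more, Actn3 ranked 1st and Atcay 3rd from the lowest, and Ms4a10, Cacna1e and Vwce ranked 1st to 3rd from the highest. Just outside the members stood Fgf17, an FGF ligand gene (-2.78 ± 0.09 against -2.95 for Atcay), and Cd109, which encodes a membrane-anchored glycoprotein (4.45 ± 0.12 against 4.77 for Vwce). With levels chosen after the values were seen, 7 of the 1928 tested genes under 1 CPM in shEV reached 10 CPM or more in shWdr5, and Ms4a10, Cacna1e and Vwce were 3 of the 7.

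The Rybp knockdown was compared with the same shEV libraries, so its values for the 5 genes are set beside those of the Wdr5 knockdown without a test. The shEV columns of its table held about double the counts of those in the Wdr5 knockdown table (ratios of totals 0.509 and 0.506), and once scaled they differed by far less than sampling noise. Actn3 was at 45.2 and 46.2 CPM in shEV and at 11.5 and 13.3 CPM in shRybp (-1.89 ± 0.09). Atcay was at 11.7 and 9.73 against 2.72 and 2.12 CPM (-2.14 ± 0.17). Both shRybp libraries lay below both shEV libraries in these 2 genes.

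The 3 genes that were high in shWdr5 stood above shEV in shRybp ESCs as well. Ms4a10 was at 0.657 and 0.516 CPM in shEV and at 3.55 and 3.9 CPM in shRybp (2.65 ± 0.29). Vwce was at 0.783 and 0.571 against 2.83 and 3.3 CPM (2.16 ± 0.31), and Cacna1e at 0.455 and 0.38 against 2.03 and 1.67 CPM (2.14 ± 0.39). Each shRybp level lay between the shEV and the shWdr5 level. In the same libraries Wdr5 itself was at 372 and 364 CPM in shEV and 265 and 260.0 CPM in shRybp, and whether it has a part in these values was not tested.

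**Figure D2:**
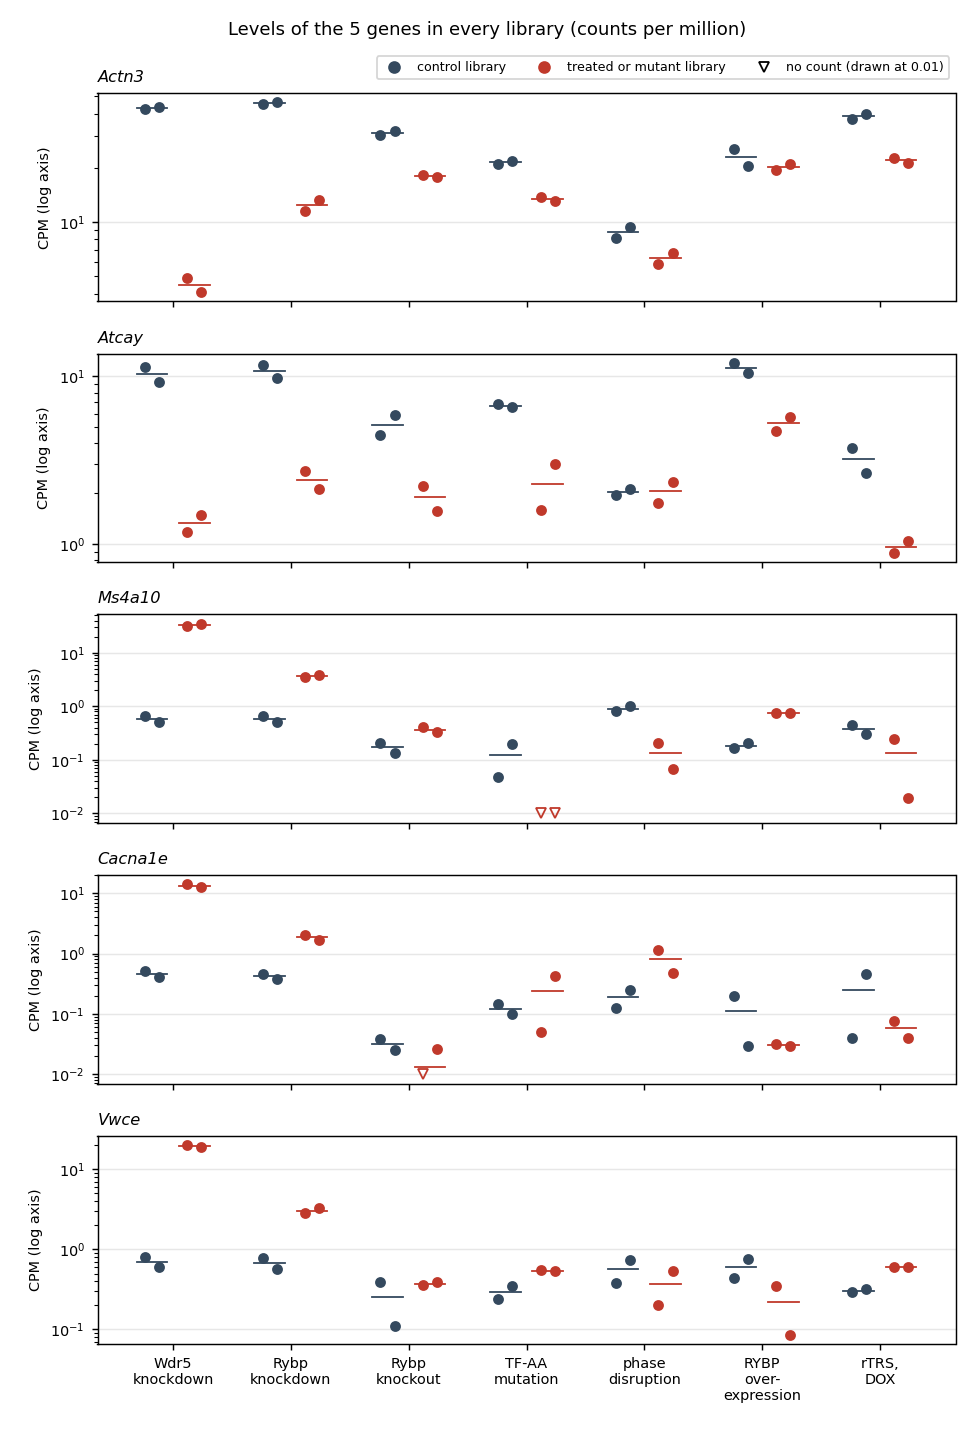
Level of each gene in every library of the 7 comparisons, in CPM on a log axis whose range differs between panels, with control libraries in grey, treated or mutant libraries in red and lines at group means of 2 libraries. Ms4a10, Cacna1e and Vwce exceed 10 CPM in the shWdr5 libraries only, while Actn3 and Atcay lie below their controls in most comparisons.

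In the other 5 comparisons, whose libraries took no part in the choice, each gene was tested in edgeR's quasi-likelihood fit over all genes. In the Rybp knockout, Atcay and Actn3 fell. Atcay was at 4.45 and 5.85 CPM in Rybp+/+ and at 2.23 and 1.57 CPM in Rybp-/- ESCs, a log2 fold change of -1.44 ± 0.18 (adjusted p = 4.5e-08, edgeR). Actn3 was at 30.6 and 32.1 against 18.3 and 17.8 CPM, a log2 fold change of -0.80 ± 0.06 (adjusted p = 4.3e-12, edgeR). The groups did not overlap in either gene.

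The other 3 genes stayed under 0.5 CPM in the knockout table. Ms4a10 was at 0.204 and 0.137 against 0.407 and 0.325 CPM (1.10 ± 0.60, adjusted p = 0.14, edgeR), with both Rybp-/- libraries higher. Vwce was at 0.394 and 0.112 against 0.355 and 0.39 CPM (0.56 ± 0.59, adjusted p = 0.48, edgeR), and the groups overlapped. Its log2 fold change was 1.71 without Rybp+/+ replicate 1 and -0.09 without Rybp+/+ replicate 2. Cacna1e had 3 and 2 counts against 0 and 2 counts and did not pass the filter on low counts, and 3 counts are worth 0.0373 to 0.0394 CPM there. Of the 4 members tested, 2 were called lower and 0 higher, against 22.7% lower and 22.8% higher over all genes. Neither an unadjusted p under 0.05 nor DESeq2 called a member higher.

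With the TF-AA mutation, Atcay and Actn3 also fell. Atcay was at 6.87 and 6.52 CPM in wild-type ESCs and at 1.59 and 2.99 CPM in the mutant (-1.56 ± 0.25, adjusted p = 3.6e-05, edgeR). Actn3 was at 21.1 and 21.9 against 13.7 and 13.1 CPM (-0.69 ± 0.12, adjusted p = 0.00014, edgeR). Both mutant libraries were below both wild-type libraries in each gene.

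Vwce was at 0.239 and 0.346 CPM in wild-type against 0.546 and 0.533 CPM in TF-AA mutant ESCs. It passed the filter only through the mutant libraries and did not pass the test (0.88 ± 0.62, adjusted p = 0.31, edgeR). Ms4a10 had 1 and 4 counts against 0 and 0, and Cacna1e 3 and 2 counts against 1 and 8, so neither could be tested. Of the 3 members tested, 2 were called lower and 0 higher (16.1% and 14.4% over all genes), and an unadjusted p or DESeq2 likewise called 0 higher.

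In the phase disruption, where RYBP lacked 21 residues, Ms4a10 and Actn3 were lower. Ms4a10 was at 0.817 and 0.997 CPM with wild-type RYBP (13 and 16 counts) and at 0.203 and 0.0672 CPM in the phase disruption (3 and 1 counts). Its log2 fold change was -2.68 ± 0.73 (adjusted p = 0.0043, edgeR). It passed the filter on low counts only through the WT.RYBP libraries, where it is high, so a lower value was the only call it could give and the call is no support for a direction. Actn3 was at 8.17 and 9.35 against 5.83 and 6.72 CPM (-0.48 ± 0.18, adjusted p = 0.033, edgeR).

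These 2 calls rest on few counts or a small difference. DESeq2 made neither call (adjusted p = 0.099 for Ms4a10 and 0.26 for Actn3). Ms4a10 lost its call without replicate 2 of the phase disruption (adjusted p = 0.092) or of WT.RYBP (0.078). Actn3 lost its call without replicate 1 of the phase disruption (0.17) or replicate 2 of WT.RYBP (0.22), and with no filter on low counts (0.079). Atcay was at 1.95 and 2.12 against 1.76 and 2.35 CPM with overlapping groups (0.02 ± 0.34, adjusted p = 0.98, edgeR). Vwce (6 and 12 counts against 3 and 8) and Cacna1e (2 and 4 counts against 17 and 7) did not pass the filter. Of the 3 members tested, 2 were called lower (17.0% over all genes), 1 of them Ms4a10, and 0 higher (16.1% over all genes), with 0 higher also by an unadjusted p and by DESeq2.

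With RYBP overexpression, Atcay fell. It was at 12.0 and 10.5 CPM with vehicle and at 4.73 and 5.76 CPM with DOX (-1.09 ± 0.18, adjusted p = 8.3e-05, edgeR), below vehicle in both libraries. Actn3 was at 25.3 and 20.6 against 19.4 and 21.1 CPM, with overlapping groups (-0.18 ± 0.12, adjusted p = 0.46, edgeR). Ms4a10 was at 0.166 and 0.203 CPM (6 and 7 counts) against 0.736 and 0.746 CPM (23 and 26 counts). Its groups did not overlap, and it passed the filter only through the DOX libraries, but the test was not passed (1.99 ± 0.79, adjusted p = 0.15, edgeR).

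Vwce was at 0.443 and 0.753 against 0.352 and 0.086 CPM (-1.45 ± 0.84, adjusted p = 0.37, edgeR), and its log2 fold change was -2.75 without DOX replicate 1 and -0.76 without DOX replicate 2. Cacna1e had 7 and 1 counts with vehicle and 1 and 1 counts with DOX and could not be tested. Of the 4 members tested, 1 was called lower (2.39% over all genes) and 0 higher (3.63% over all genes). An unadjusted p under 0.05 would have added Ms4a10 as higher. DESeq2 gave no adjusted p for Ms4a10 or Vwce here, and it called neither Atcay nor Actn3 higher.

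In the rTRS line, Atcay and Actn3 were lower in the libraries labelled DOX. Atcay was at 3.76 and 2.64 CPM in NTC and at 0.886 and 1.04 CPM in DOX (-1.73 ± 0.30, adjusted p = 0.00051, edgeR). Actn3 was at 37.5 and 39.8 against 22.7 and 21.3 CPM (-0.81 ± 0.09, adjusted p = 1.2e-05, edgeR). The groups did not overlap in either gene, and both calls held when any single library was left out.

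Vwce was at 0.293 and 0.316 CPM in NTC against 0.597 and 0.609 CPM in DOX (0.98 ± 0.58, adjusted p = 0.2, edgeR). Ms4a10 was at 0.45 and 0.298 against 0.25 and 0.0196 CPM (-1.45 ± 0.90, adjusted p = 0.22, edgeR). Without DOX replicate 1 its log2 fold change was -4.09. That value rests on 1 DOX library with 1 count, which is assumed to vary like the NTC libraries. In that fit Ms4a10 passed the filter only through NTC, so it could only be called lower. Without DOX replicate 2 the log2 fold change was -0.57. Cacna1e had 2 and 25 counts in NTC and 4 and 2 counts in DOX. The 25 counts stood in 1 library only, and the gene did not pass the filter. Of the 4 members tested, 2 were called lower (20.4% over all genes) and 0 higher (23.0% over all genes), with 0 higher by an unadjusted p and by DESeq2.

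**Figure D3:**
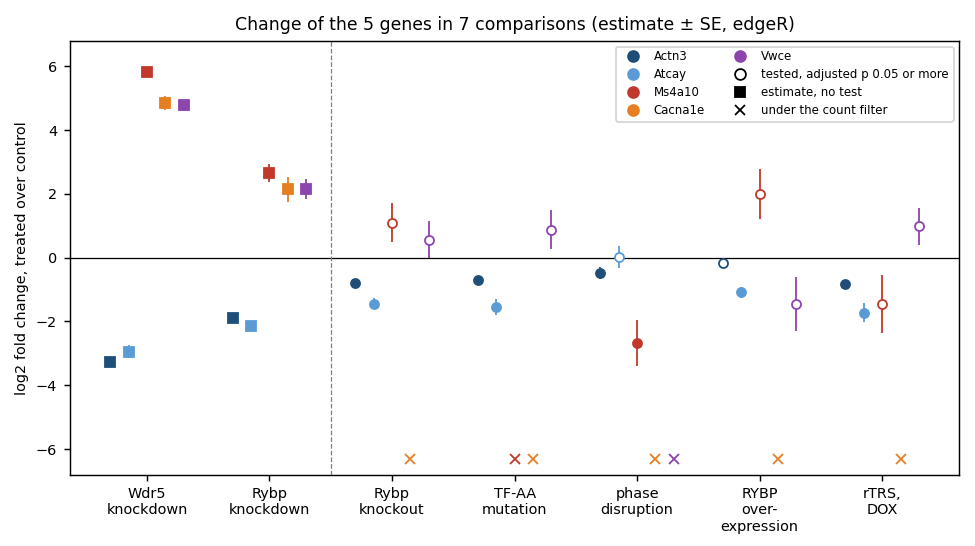
Log2 fold change (estimate ± SE from edgeR, 2 libraries per group) of each gene in the 7 comparisons, with squares for the comparisons that chose the genes or share shEV libraries, filled circles for an adjusted p under 0.05, open circles for other tested genes and crosses for genes under the count filter. Right of the dashed line the filled circles of Atcay run from -1.73 to -1.09 and those of Actn3 from -0.81 to -0.48, and that of Ms4a10 could only be called lower, as it passed the filter through its control libraries alone.

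Set side by side, the levels of the 5 genes had different spreads over the groups. Actn3 ranged from 4.49 CPM in shWdr5 to 45.7 CPM in shEV of the Rybp knockdown table, with WT.RYBP ESCs at 8.76 CPM. Atcay ranged from 0.963 CPM in the rTRS libraries labelled DOX to 11.2 CPM in the Tet on.RYBP line with vehicle, and the latter overlapped shEV, whose libraries stand in both knockdown tables. For Ms4a10, Cacna1e and Vwce, shWdr5 was the highest group and shRybp the second, and neither overlapped another group. The highest mean of Vwce outside shWdr5 and shRybp was 0.701 CPM, that of Cacna1e 0.812 CPM and that of Ms4a10 0.907 CPM. The tables come from different lines and were not scaled to each other, so levels across them are a description.

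The peak lists gave 4 combinations of peaks at the 5 promoters, with Vwce and Cacna1e alike. WDR5, H3K4me3 and H3K27ac lists were of Rybp+/+ and Rybp-/- R7.15 ESCs, each called by the authors on 2 merged replicates. RING1B lists were of R1 ESCs with shEV or shStat3 and of the DOX-inducible Rybp and Stat3 line without (DOX-) and with DOX (DOX+), the shRNA lists from 1 library each and the DOX lists from 2 merged replicates. A list holds no replicate, so no test between lists was made, and a peak present in a single list is a call of that list. A peak was counted at a promoter when it overlapped the 2.5 kb on either side of the start site.

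Actn3 had peaks of all 4 kinds at its promoter. The WDR5 peak at chr19:4877912-4879078 had a fold enrichment of 32.4 in Rybp+/+ ESCs, at percentile 98.4 of its list (the share of its peaks with a lower enrichment), and in Rybp-/- ESCs the peak at chr19:4878155-4879163 had 35.4, also at percentile 98.4. The H3K4me3 peak was 3.16 kb wide with a fold enrichment of 52.0 (percentile 95.1) in Rybp+/+ and 2.93 kb wide with 35.6 (percentile 81.0) in Rybp-/- ESCs. In Rybp+/+ ESCs the H3K27ac peak over the start had a fold enrichment of 4.6 (percentile 59.0). A separate one, centred 1.15 kb upstream, had 14.7. In Rybp-/- ESCs a wider peak (1.66 kb) covered the start with 9.49, so these peaks are not of the same extent. RING1B peaks were weak there, with fold enrichments of 3.33 in shEV, 3.13 in shStat3 and 3.92 in DOX-, and in DOX+ the nearest one was 22.3 kb away. This combination of 4 marks stands at 26.3% of protein-coding promoters, counted with Rybp+/+ lists of R7.15 ESCs and a RING1B list of R1 ESCs.

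The Actn3 peaks cannot be assigned to Actn3 alone. Zdhhc24, a gene of the palmitoyltransferase family, starts on the opposite strand 759 bp before Actn3, and a peak of each kind covers its start site. These include all WDR5, H3K4me3 and RING1B promoter peaks named here and the H3K27ac peaks with 14.7 and 9.49. In the Wdr5 knockdown Zdhhc24 fell as well, from 13.9 and 13.7 CPM to 7.19 and 8.1 CPM (-0.85 ± 0.12, adjusted p = 1.8e-06, edgeR). Ctsf, a cathepsin gene 0.3 kb past the other end of Actn3, rose there from 14.7 and 15.7 to 17.5 and 19.5 CPM (0.29 ± 0.10, adjusted p = 0.016, edgeR).

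Atcay had peaks of WDR5, H3K4me3 and H3K27ac within 2.5 kb. The WDR5 peak at chr10:80695789-80696094 had a fold enrichment of 2.79 in Rybp+/+ (percentile 2.24) and 6.25 in Rybp-/- ESCs (percentile 65.5), and the H3K27ac peaks had 5.7 and 11.9. These peaks, and an H3K4me3 peak with a fold enrichment of 18.4 in Rybp+/+ and 36.3 in Rybp-/- ESCs, were centred about 2.4 kb upstream of the Atcay start site. They cover the start site of Zfr2, a zinc finger RNA-binding protein gene that begins 2322 bp away on the opposite strand. Zfr2 was at 1.26 and 0.708 CPM in shEV and 0.887 and 1.1 CPM in shWdr5 (0.00 ± 0.40, adjusted p = 1.0, edgeR). It fell in the Rybp knockout (-0.83, adjusted p = 0.039, edgeR) and with the TF-AA mutation (-1.77, adjusted p = 0.013, above the filter in both libraries of wild-type alone), where Atcay fell too, and rose in the rTRS line (1.06, adjusted p = 0.00038), where Atcay fell. A separate H3K4me3 peak covered the Atcay start itself, with a fold enrichment of 9.92 in Rybp+/+ and 5.5 in Rybp-/- ESCs. RING1B peaks stood at Atcay in DOX- only, with fold enrichments of 3.41 and 3.82, and in the other 3 RING1B lists the nearest peak was 8.5 kb away. WDR5, H3K4me3 and H3K27ac without RING1B stand at 13.0% of protein-coding promoters with the Rybp+/+ lists.

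Cacna1e and Vwce carried H3K4me3 and RING1B and no WDR5 or H3K27ac peak at the promoter. At Cacna1e the RING1B peak at chr1:156572479-156575235 had a fold enrichment of 21.9 in shEV, at percentile 89.3 of its list. It was 22.8 in shStat3, 22.9 in DOX- and 15.4 in DOX+, and the DOX+ peak was 5.67 kb wide. The H3K4me3 peak over the start had a fold enrichment of 14.1 in Rybp+/+ and 18.5 in Rybp-/- ESCs. The nearest WDR5 peak was 357.1 kb away in Rybp+/+, and the nearest H3K27ac peak 324.5 kb away.

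At Vwce the RING1B peaks were of middle rank, with fold enrichments of 6.06 in shEV, 5.99 in shStat3, 4.78 in DOX- and 4.42 in DOX+. The H3K4me3 peak over the start had 11.5 in Rybp+/+ and 14.3 in Rybp-/- ESCs. The nearest WDR5 peak was 28.3 kb away and the nearest H3K27ac peak 12.6 kb away in Rybp+/+ ESCs. H3K4me3 with RING1B and neither of the other marks stands at 8.36% of protein-coding promoters with the Rybp+/+ lists.

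Ms4a10 differed from these in having H3K27ac without RING1B. Over its first 3 kb stood 3 H3K27ac peaks in Rybp+/+ ESCs, the strongest with a fold enrichment of 17.0 (chr19:11047432-11048513, percentile 91.4, centred 1.19 kb inside the gene) and another over the start site with 5.2. In Rybp-/- ESCs the strongest had 13.3 (percentile 90.5) and the one over the start 3.58. No WDR5 or RING1B peak lay within 2.5 kb, the nearest WDR5 peak being 25.3 kb away in Rybp+/+. A weak H3K4me3 peak, 0.335 kb wide with a fold enrichment of 3.06, was listed for Rybp-/- ESCs. For Rybp+/+ ESCs the nearest one was 8.4 kb away. H3K27ac alone stands at 1.13% of protein-coding promoters with the Rybp+/+ lists.

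**Figure D4:**
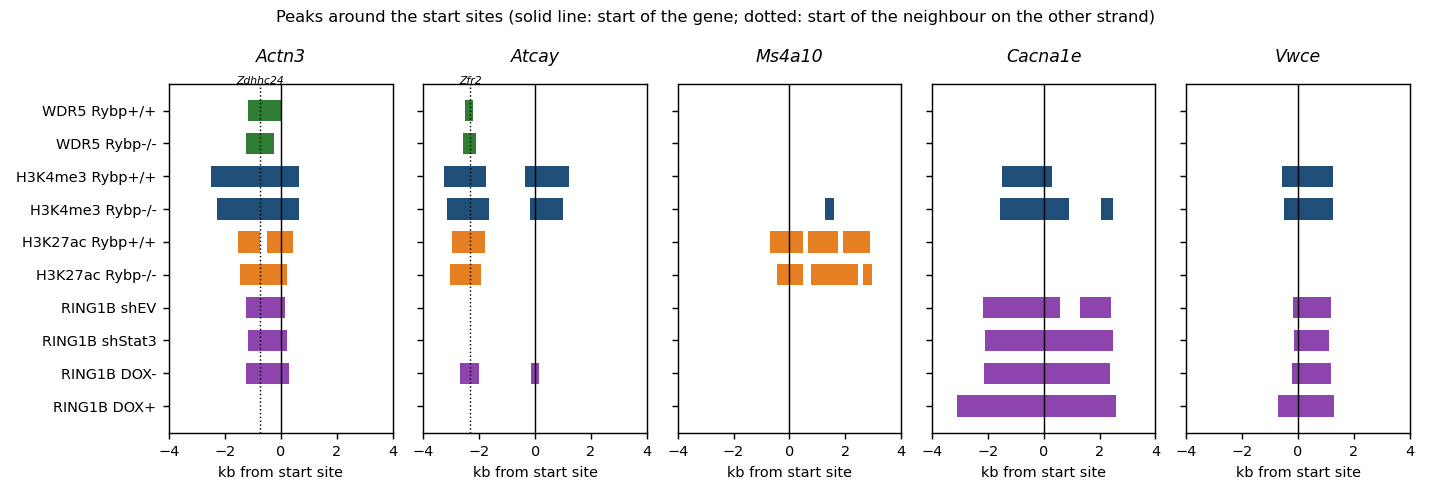
Peaks of each list within 4 kb of the start site of each gene, drawn to scale in kb with the direction of transcription to the right, and dotted lines at the start sites of Zdhhc24 and Zfr2. WDR5 peaks appear at Actn3 and Atcay only, and RING1B covers the start of Cacna1e and Vwce in all 4 lists.

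To set these peaks in context, promoters of all protein-coding genes tested in the Wdr5 knockdown were counted. A WDR5 peak of Rybp+/+ ESCs stood at 69.3% of the genes called lower, at 68.9% of those called higher and at 67.8% of all tested. Among genes under 1 CPM in shEV, as Ms4a10, Cacna1e and Vwce were, the share was 26.3%, and among those of them called higher it was 22.7%. A RING1B peak of shEV ESCs stood at 57.5% of the genes called lower, at 63.9% of those called higher and at 59.7% of all tested. Among genes under 1 CPM in shEV it stood at 50.8%, and among those of them called higher at 50.9%. No test was made on these shares.

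Neighbouring genes were examined because Vwce and Ms4a10 lie close together. Of the 12 protein-coding genes between them, 7 passed the filter in the Wdr5 knockdown. The 4 called higher (31.5% over all genes) were Pga5, Tmem132a, Ccdc86 and Cd5, of which Cd5 could only be called higher, and the other 3 had log2 fold changes of 0.02 to 0.14 without a call. Cd5, which encodes a lymphocyte surface receptor, had 0 counts in both shEV libraries and 14 and 10 counts in shWdr5, at least 3.88-fold higher when the shEV libraries are set at 3 counts each, and it passed the filter only through shWdr5. Pga5, a pepsinogen gene 3.7 kb past Vwce, was at 0.561 and 0.91 against 1.49 and 1.29 CPM (0.93 ± 0.38, adjusted p = 0.039, edgeR). The median log2 fold change of the 7 genes was 0.36, against 4.77 for Vwce and 5.82 for Ms4a10.

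The genes on either side of the pair are given for their place, not by their change. Ddb1, which ends 4.4 kb before Vwce, was at 991 and 982 CPM in shEV and at 1510 and 1470 CPM in shWdr5 (0.60 ± 0.04, adjusted p = 4.6e-12, edgeR). Ms4a15, 3.6 kb from Ms4a10, was at 0.28 and 0.556 against 0.187 and 0.336 CPM and was under the filter. Beside Cacna1e, Zfp648 lay 186.8 kb away and was at 0.0 and 0.0 against 0.28 and 0.432 CPM, under the filter. On the other side the immediate early response gene Ier5 lay 370.4 kb away and was at 11.5 and 10.9 against 23.7 and 25.0 CPM (1.12 ± 0.10, adjusted p = 8.7e-10, edgeR).

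**Figure D5:**
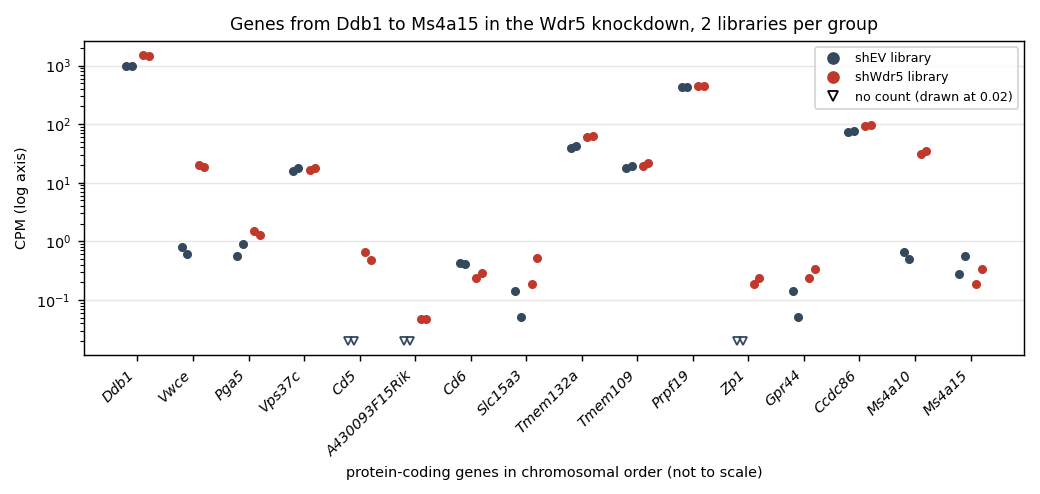
Levels in 2 shEV and 2 shWdr5 libraries of the protein-coding genes from Ddb1 to Ms4a15 in chromosomal order, in CPM on a log axis, with triangles for libraries without a count. Vwce and Ms4a10 rise from under 1 CPM to 18.8 CPM or more, while Vps37c, Tmem132a, Tmem109, Prpf19 and Ccdc86 between them have log2 fold changes of 0.02 to 0.60.

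Other genes of the 5 families were followed as lists. In the calcium channel list, 17 genes other than Cacna1e were found, 12 passed the filter, and in the Wdr5 knockdown 4 were called higher, 3 lower and 5 neither (31.5% in each direction over all genes), with a median log2 fold change of 0.03 against -0.01 over all genes. Cacna1g, a T-type channel, rose from 4.02 and 2.48 to 5.98 and 7.1 CPM (1.00, edgeR). Cacna1s, the skeletal muscle L-type channel, was at 3.41 and 4.0 against 3.41 and 3.45 CPM there, while it rose in the Rybp knockdown (3.03, from 3.41 and 4.1 to 29.1 and 32.2 CPM), in the Rybp knockout (1.97), with the TF-AA mutation (4.12) and in the phase disruption (2.62). The cardiac and neuronal L-type channel Cacna1c rose in the Rybp knockout (1.40) and with the TF-AA mutation (1.82). In the TF-AA table both Cacna1s and Cacna1c passed the filter only through the mutant libraries and could only be called higher. Cacna1e itself was under the count filter in the knockout, TF-AA and phase disruption tables.

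All 3 other alpha-actinins fell in the Wdr5 knockdown, against 31.5% of all genes, with log2 fold changes nearer 0 than that of Actn3. The non-muscle forms Actn1 (-0.62) and Actn4 (-0.40) were abundant, Actn4 at 1320.0 and 1400.0 against 1020.0 and 1040.0 CPM. Muscle Actn2 fell from 4.91 and 4.7 to 2.29 and 2.35 CPM (-1.05). In the Rybp knockout, where Actn3 fell by 0.80, Actn1 fell (-0.26) and Actn4 was at 0.04. Elsewhere some moved against Actn3. In the Rybp knockdown Actn2 rose (0.88) and 2 were called lower (26.8% higher and 26.0% lower over all genes). With the TF-AA mutation Actn2 rose (0.99), 1 was called lower and 1 was not called (14.4% higher and 16.1% lower over all genes). In the rTRS line Actn1 (0.27) and Actn4 (0.23) rose and 0 were called lower (23.0% higher and 20.4% lower over all genes). Of the 5 other BCH domain genes, 1 was called higher and 1 lower in the Wdr5 knockdown. The lower one was Bnipl, from 1.92 and 2.33 to 1.12 and 0.48 CPM (-1.39), and Bnipl fell in the phase disruption (-1.27) but rose in RYBP overexpression (0.74) and the rTRS line (1.11). The higher one was Arhgap1, a GTPase-activating protein gene (0.46).

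Of the von Willebrand factor C domain genes, 5 of 9 passed the filter in the Wdr5 knockdown, 3 were called higher and 1 lower, with a median of 0.92, against 31.5% called in each direction and a median of -0.01 over all genes. Crim1, a BMP-binding membrane protein, rose from 9.53 and 9.41 to 21.8 and 20.4 CPM (1.16), and Vwf, which encodes von Willebrand factor, from 7.9 and 6.42 to 15.4 and 15.3 CPM (1.10). Kcp, a secreted regulator of BMP signalling, rose by 0.92 there and by 1.49 with the TF-AA mutation. The BMP antagonist Chrd fell by 0.84. The other MS4A genes were low in both groups. Of 17 found, 2 passed the filter, 8 had no count in the table, and their summed level was 2.43 and 3.64 CPM in shEV against 1.54 and 1.34 CPM in shWdr5. The 1 call was Ms4a6d, from 0.841 and 1.16 to 0.0934 and 0.288 CPM (-2.36), which passed the filter only through shEV and so could only be called lower. In the rTRS line Ms4a4d (2.25) and the related Tmem176a (2.01) rose and Ms4a6d and Ms4a14 fell (by 2.0 each), and Ms4a14 rose in the Rybp knockout (1.81) and fell with the TF-AA mutation (-1.45), all at low levels. Of these, Ms4a6d and Ms4a14 in the rTRS line and Ms4a14 in the knockout were above the filter in both libraries of the higher group alone, which favours a call in that direction. The lists were compared with all genes by count and median only.

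Markers of other cell types were examined because these genes are known from muscle, brain and other tissues. In the Wdr5 knockdown, where 31.5% of all genes were called in each direction, 4 of the 5 pluripotency genes fell and Sox2 rose, and their summed level was 4960 and 5140 CPM in shEV against 4110 and 4130 CPM in shWdr5. Of 8 skeletal muscle markers, 6 passed the filter, and 4 (Myod1, Myog, Ttn and Ckm) rose and Des fell, with sums of 47.1 and 47.0 against 62.3 and 63.1 CPM. Of the neuron markers, the 4 tested (Tubb3, Stmn2, Rbfox3 and Elavl3) fell, with sums of 622 and 612 against 315 and 319 CPM, and Snap25 and Syt1 stayed under 0.4 CPM. Map2, the other neuron marker listed, matched no gene by its symbol and is in no neuron sum given here. Of the extraembryonic or gut endoderm markers, 3 of 5 tested (Gata4, Gata6 and Sox17) rose and Vil1 fell, with sums of 11.0 and 12.6 against 31.7 and 30.8 CPM, and Afp, Apoa1 and Ttr stayed under 0.3 CPM. Of the blood markers, Cd79a and Cd79b fell, Ptprc stayed under 0.1 CPM and Hbb-bh1 had no count, with sums of 7.01 and 5.06 against 2.71 and 2.16 CPM. Myod1 and Myog passed the filter only through shWdr5, and Cd79a only through shEV, which fixes the direction of their calls, and Cd79b was above it in both libraries of shEV alone. The part of such a change in cell state in the values of the 5 genes was not tested.

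In the Rybp knockdown the summed pluripotency level was 5270 and 5470 CPM in shEV against 4390 and 4400.0 CPM in shRybp, the neuron sum 662 and 649 against 425 and 411 CPM, and the muscle sum 48.1 and 47.4 against 59.9 and 59.7 CPM. The blood sum was 7.23 and 5.3 against 6.34 and 6.26 CPM and the endoderm sum 10.7 and 12.4 against 21.8 and 23.6 CPM. In the Rybp knockout the summed pluripotency level was 2700 and 2760 against 2950 and 2960 CPM, that of the neuron markers 271 and 284 against 277 and 279 CPM, and that of the muscle markers 22.2 and 22.7 against 32.1 and 32.3 CPM. The blood sum was 7.2 and 7.13 against 6.96 and 6.99 CPM and the endoderm sum 5.46 and 6.11 against 8.05 and 8.11 CPM. With the TF-AA mutation the pluripotency sum was 3840 and 3710 against 4000 and 3940 CPM, the neuron sum 383 and 371 against 450.0 and 476 CPM and the muscle sum 27.7 and 28.0 against 47.9 and 44.8 CPM. In RYBP overexpression these were 3870 and 3820 against 3780 and 3800 CPM, 394 and 377 against 344 and 349 CPM, and 33.0 and 27.6 against 41.0 and 38.5 CPM. In the phase disruption they were 1850 and 1900 against 1930 and 1930 CPM, 167 and 185 against 146 and 147 CPM, and 39.5 and 40.8 against 39.8 and 39.5 CPM. In the rTRS line the pluripotency sum was 3650 and 3520 CPM in NTC against 2210 and 2110 CPM in DOX, the neuron sum 625 and 595 against 309 and 288 CPM and the muscle sum 46.1 and 43.8 against 56.1 and 53.9 CPM. The blood sum was 3.82 and 4.29 against 6.7 and 5.65 CPM with the TF-AA mutation, 2.46 and 3.19 against 5.02 and 4.42 CPM in RYBP overexpression, 2.51 and 2.68 against 3.12 and 3.16 CPM in the phase disruption and 5.14 and 5.02 against 3.23 and 2.77 CPM in the rTRS line. The endoderm sum in the same order was 4.44 and 4.59 against 9.24 and 7.09 CPM, 6.06 and 7.41 against 4.09 and 5.59 CPM, 10.9 and 8.97 against 16.6 and 13.9 CPM, and 5.36 and 5.4 against 4.04 and 4.59 CPM. These sums weight abundant genes most and carry no test. In RYBP overexpression (3.63% higher and 2.39% lower over all genes) 1 neuron marker was called lower and 0 markers of the other lists were called. In the rTRS line 0 blood and 0 endoderm markers were called, and in the Rybp knockout 0 blood markers. The part of any such difference in the values of the 5 genes was not tested either.

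The genes whose levels ran most like each member were found by Pearson r over the 28 columns of all tables, after centring the log2 CPM of each table on its mean, among 13527 genes. The 28 columns hold 26 distinct libraries, as the shEV libraries enter from both knockdown tables. Columns of a table share their line, and the Wdr5 knockdown table that chose the members holds the widest differences, so these values are descriptive. For Actn3 they were Cct4 (0.967), Ccne1 (0.966) and Esyt1 (0.964), and for Atcay Ppp2r5a (0.948), Tomm34 (0.932) and Gtpbp1 (0.931). For Ms4a10 they were Cenpt (0.976), 9530053A07Rik (0.972) and Rab23 (0.971), for Cacna1e Sez6 (0.966), Rabgap1 (0.947) and Brwd1 (0.937), and for Vwce Aaas (0.948), Rbm17 (0.948) and 1700007K13Rik (0.947).

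Between the members, r was 0.901 for Actn3 and Atcay, and 0.853 to 0.899 among Ms4a10, Cacna1e and Vwce. Without the Wdr5 knockdown table, the shEV libraries that took part in the choice stay in through the Rybp knockdown table. On those columns r was 0.878 for Actn3 and Atcay but 0.31 to 0.52 among the other 3. Ppp2r5a, a regulatory subunit of protein phosphatase PP2A, stayed first for Atcay (0.934), Sez6 for Cacna1e (0.88) and Cenpt for Ms4a10 (0.932), while other genes came first for Actn3 and Vwce. By Spearman's rho, Ppp2r5a was first for Atcay (0.956), other genes came first for the other members (Cenpt was at 0.936 for Ms4a10 and Sez6 at 0.867 for Cacna1e), and the values among Ms4a10, Cacna1e and Vwce were 0.422 to 0.555. The likeness of Aaas to Vwce was 0.778 by Spearman's rho and 0.781 without the Wdr5 knockdown table.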

How the data were processed

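Total RNA was sequenced from mouse ESCs, and ChIP-seq peaks were called for WDR5, H3K4me3, H3K27ac and RING1B. The deposited count tables hold raw reads per gene, which the authors obtained with Trim Galore, STAR and HTSeq on mm9, tools named in the submitters' processing notes and the methods. Gene identifiers matched a symbol for 37205 of 37620 genes. Reads on no gene (13.7% to 26.5% of reads in the 6 tables that list them) were left out, and 0 columns were unused. In the deposited peak lists, fold enrichment is the authors' MACS2 ratio over background, given with the -log10 q value of each peak. Settings are stated for the WDR5, H3K4me3 and H3K27ac lists and not given in the sources used here for the RING1B lists, and the depth behind a peak is unknown.

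Counts were fitted within each table with edgeR 4.0.16 in R 4.3.3 (quasi-likelihood test, TMM, filterByExpr with a minimum count of 10, Benjamini-Hochberg over all genes, threshold 0.05). CPM use TMM library sizes, ± is the SE of the fit with n = 2 per group, and a floor is 3 counts. Scripts were tested on simulated data. Alternatives were DESeq2 1.42.0 (also its size factors), no filter, a replicate block, leaving out each library and, for peaks, other windows, a stricter q and a larger overlap. NTC columns of the RYBP overexpression table were read as vehicle, and 1 column of the rTRS table carries a prefix found in no label. STAT3 peaks were not used here. Gene models and promoter sequences are from NCBIM37, in windows of 250 bases. Exon length is the gene length column of the Wdr5 knockdown table, a deposited value of another kind.

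The members and gene lists were chosen with earlier results of these data known. Genes other than members were named by rule: from each family those with an adjusted p under 0.05 and an absolute log2 fold change of 1 or more in the Wdr5 knockdown or in 2 other comparisons, the 4 neighbours with the largest change (others where a peak or a place on the map calls for them), the next gene at each end by fold change at 5 CPM or more, and the 3 genes most like each member by r of log2 (CPM + 0.5) at a mean of 1 CPM or more. Genes outside these rules (such as Arhgap1, Chrd, Actn1 and Actn4) were named, after their values were seen, where a count of 5 or fewer covers them. Some genes that these rules would name are not reported here.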

Additional observations from a re-analysis of the deposited data

How the results depend on the processing

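Recomputed under each alternative, a member's log2 fold change was judged by its direction and call in the 5 tested comparisons. In the Wdr5 and Rybp knockdowns, without a test, it was judged by its error. It kept its direction and call, or stayed within its error, in 204 cases. In the knockdowns it moved further in 7. In the tested comparisons it lost its call in 7, gained one in 1 and turned direction in 3, none of the 3 called. A shift in size alone was not counted there, such as Atcay with the TF-AA mutation, at -2.07 without mutant replicate 2 against -1.56. Vwce in the Rybp knockout was -0.09 without Rybp+/+ replicate 2 and up to 1.71 without another library. Atcay in the phase disruption was -0.21 without phase disruption replicate 2 and -0.05 without WT.RYBP replicate 1, and up to 0.21 without another library. The calls of Atcay and Actn3 in the Rybp knockout, the TF-AA mutation and the rTRS line, and of Atcay in RYBP overexpression, held under every alternative run. In the phase disruption, DESeq2 gave -0.49 for Actn3 and -2.75 for Ms4a10, and no filter on low counts gave -0.49 for Actn3, all without a call. Leaving out each library gave -0.59 to -0.39 for Actn3 and -3.61 to -2.12 for Ms4a10 there, and -4.09 to -0.57 for Ms4a10 in the rTRS line.

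The number of genes called was 4412 with the TF-AA mutation but 2894 with DESeq2 (2724 to 4767 on leaving out a library), and 4814 in the phase disruption but 2633 with DESeq2. In RYBP overexpression it was 899, and 406 to 1566 on leaving out a library, 406 and 409 without Tet.RYBP.DOX replicate 1 or 2, and 1566 and 1467 without Tet.RYBP.vehicle replicate 1 or 2. The cause was not tested.

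Libraries with the same replicate number deviated together by a correlation of 0 to 0.15 over genes, with only 2 numbers, so they were not taken as pairs. With the replicate block the genes called were 9865 instead of 9547 in the Wdr5 knockdown, 9110 in the Rybp knockdown, 7724 in the Rybp knockout, 5525 with the TF-AA mutation, 5172 in the phase disruption, 1211 in RYBP overexpression and 8559 in the rTRS line, and no member gained or lost a call.

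Members with a promoter peak varied with the window. Within 1 kb the number was 1 instead of 2 for WDR5 in both genotypes (Atcay was lost), 4 instead of 5 for H3K4me3 in Rybp-/- and 2 instead of 3 for H3K27ac in both. Within 10 kb it was 5 instead of 4 for H3K4me3 in Rybp+/+, and 4 for RING1B in shEV, shStat3 (3 in the narrower window for each) and DOX+ (2). At a -log10 q of 5 or more it was 1 for WDR5 in Rybp+/+, 4 for H3K4me3 in Rybp-/-, and 2 for RING1B in shEV, shStat3 and DOX- (Vwce and Cacna1e). A larger required overlap changed none of these. At these depths Cacna1e, with 0 to 25 counts, could not be tested in the 5 comparisons outside the shRNA tables.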
